A study of Mus musculus with 21 samples.

Results

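The alpha, pi, theta and kappa classes of glutathione transferase were examined in mouse liver through 10 genes, *Gsta1*, *Gsta2*, *Gsta3*, *Gsta4*, *Gstp1*, *Gstp2*, *Gstt1*, *Gstt2*, *Gstt3* and *Gstk1*. They were taken by symbol from the GENCODE M21 annotation of GRCm38, and all 10 were among the 46078 genes of the count table. The libraries were poly(A) RNA-seq of liver from male mice on a 129/C57BL/6 background, at least 9 weeks old when the diets began and, per the study's methods, kept on restricted calories. The knockout (KO, labelled cse) lacked *Cse*, the gene for cystathionine γ-lyase, which makes cysteine from cystathionine and carries the symbol *Cth*. The comparison mice are labelled WT, but the study's text describes its controls as *Cse*+/- heterozygotes, so both genotypes may carry the targeted allele. The diets were a defined amino acid diet (CTR), the same diet without cysteine (noCys) and the same diet without tryptophan (noTrp), with the other amino acids raised in proportion in the depleted diets. This gave 6 groups and 21 libraries, with n = 3 for WT CTR, 4 for KO CTR, 4 for WT noCys, 3 for KO noCys (numbered 1, 3 and 4), 2 for WT noTrp and 5 for KO noTrp. The study asked how liver answers the loss of both sources of cysteine, with tryptophan loss as the comparison.

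Glutathione is a tripeptide built from glutamate, cysteine and glycine, and its thiol comes from the cysteine. Glutathione transferases join that thiol to reactive, electron-poor compounds, and the conjugates are pumped out of the cell and processed to mercapturic acids. In liver the alpha class is abundant and also reduces lipid hydroperoxides, and the pi class is a major hepatocyte transferase of male mice. The theta class handles small halogenated compounds and sulfate esters, and the kappa enzyme sits in mitochondria and peroxisomes. Several family members are known targets of NRF2, the transcription factor of the oxidative stress response (OSR).

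The alpha pair *Gsta1* and *Gsta2* and the pi pair *Gstp1* and *Gstp2* are so alike that short reads often cannot be assigned to one gene, which bears on each value given for them. The coding sequences of *Gsta1* and *Gsta2* were 97.5% identical (655 of 672 aligned bases), and those of *Gstp1* and *Gstp2* were 98.1% identical (621 of 633). All other pairs within a class shared 62.3% to 76.3%, and pairs from different classes shared 48.6% to 55.3%. The first 61 coding bases, 1 read length, are shown 5′ to 3′ from the GENCODE transcripts, with differing bases in capitals. The alpha pair was identical over this stretch, so it is printed once.
Gsta1 and Gsta2: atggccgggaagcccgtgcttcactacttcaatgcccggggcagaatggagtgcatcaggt
Gstp1: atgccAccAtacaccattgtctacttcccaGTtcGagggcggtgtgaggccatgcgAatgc
Gstp2: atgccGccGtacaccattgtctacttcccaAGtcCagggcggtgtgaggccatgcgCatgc

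The alpha pair differed most within bases 448 to 508 of both coding sequences, where 5 of 61 bases (in capitals) set them apart.
Gsta1: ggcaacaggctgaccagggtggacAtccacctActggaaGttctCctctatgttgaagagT
Gsta2: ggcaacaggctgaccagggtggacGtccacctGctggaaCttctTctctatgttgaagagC

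Of all 61-base stretches in the annotated transcripts of *Gsta1*, 87.9% also occurred in a transcript of another gene, 72.9% in the predicted gene Gm3776 and 41.1% in *Gsta2*. The share was 43.5% for *Gsta2*, 31.7% for *Gstp1*, 52.3% for *Gstp2*, 11.9% for *Gstt3* (all with the overlapping model Gm20441) and 0.12% for *Gstt2*. *Gsta3*, *Gsta4*, *Gstt1* and *Gstk1* shared none. The counting program leaves out reads that align to several places unless told otherwise, and its setting was not stated. The counts of *Gsta1* in particular may therefore fall short of its transcript level.

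The stretches before the RefSeq transcription start of the 2 pairs are shown because the members of each pair are nearly identical in coding sequence but differed in level. They come from the RefSeq promoter table on GRCm38, which held 8 of the 10 members. The longest stretch aligned without a gap and outside annotated exons covered 107 bases and was 86.0% identical, with the 15 differing bases in capitals. *Gsta1* is given at chr9:78230528-78230634 on the plus strand and *Gsta2* at chr9:78347183-78347289 on the minus strand.
Gsta1: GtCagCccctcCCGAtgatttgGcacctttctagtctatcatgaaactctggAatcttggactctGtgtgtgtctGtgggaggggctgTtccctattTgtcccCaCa
Gsta2: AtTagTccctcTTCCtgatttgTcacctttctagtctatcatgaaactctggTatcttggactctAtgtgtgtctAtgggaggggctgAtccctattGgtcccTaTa

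The pi stretches are 120 bases each, *Gstp1* at chr19:4037978-4038097 and *Gstp2* at chr19:4042302-4042421, both on the minus strand. The capitals mark TGAGTCAGC, which ended both stretches. GENCODE has longer transcripts of *Gsta2* and *Gstp2*, so their stretches lie within the annotated genes, and the last bases of the *Gstp1* stretch lie in its annotated gene.
Gstp1: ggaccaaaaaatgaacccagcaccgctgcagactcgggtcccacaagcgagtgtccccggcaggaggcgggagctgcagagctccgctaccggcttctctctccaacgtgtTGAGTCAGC
Gstp2: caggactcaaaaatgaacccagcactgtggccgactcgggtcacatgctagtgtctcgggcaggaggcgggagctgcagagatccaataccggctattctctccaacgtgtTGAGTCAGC

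The core of the antioxidant response element, to which NRF2 binds, was searched as TGACNNNGC on both strands of the 250 bases before each start. It occurred in 1 of the 8 members, *Gsta3*, and in 10.2% of the 32851 windows of the whole table. The related form TGAGNNNGC, chosen after the windows had been read, occurred in 3 members, *Gstp1*, *Gstp2* and *Gstt1*, and in 14.4% of all windows. The match in both pi genes also contains TGAGTCA, the AP-1 motif. These matches describe the letters in the windows and are not evidence of binding, and elements farther from the start were not searched.

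The total count per library ran from 8889951 to 27230852, and the 10 members took 0.206% to 0.306% of it. *Cth* was at 108 to 452 CPM (TMM-scaled counts relative to library size) in the 9 WT libraries and at 6.34 to 14.99 in the 12 KO libraries. The hepatocyte marker list (10 genes) summed to 81213 to 121423 CPM over all libraries, and a list of 7 kidney tubule markers to at most 0.450. Unlike the CPM of single genes, marker sums here and below are relative to the library total without TMM scaling. Whether the groups said to be apart in marker sums stay apart with TMM scaling was not tested. 2 libraries stood apart: WT CTR 3 held 7.96% small and ribosomal RNA against at most 0.383% elsewhere, and WT noTrp 1 lay far from WT noTrp 2 on the second principal component of log2 CPM (-47.2 against 3.39, with all other libraries between -26.0 and 32.4). Calls that were lost or gained without such a library are given without it too, whereas levels, class sums and counts of groups that do not overlap include all libraries. Every adjusted p is the Benjamini-Hochberg value of edgeR's quasi-likelihood F-test over the 14370 genes tested, all 10 members included, and genes with a value under 0.05 are referred to as called. Nothing in the labels says whether the animals of a group were housed or handled apart. Each p-value sets a difference between groups against the spread between animals, estimated over all 6 groups. It cannot account for shared housing or handling.

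Per kilobase of annotated exon, the scale on which genes can be compared, *Gstp1* was the most abundant member in WT CTR at 572 ± 59.8 CPM per kb (SD, n = 3). *Gsta3* followed at 265 ± 16.7, *Gstt1* at 225 ± 14.7 and *Gstk1* at 81.4 ± 4.83. *Gsta4* (35.6 ± 1.46) and *Gstt2* (33.0 ± 1.80) overlapped between libraries, as did *Gsta2* (12.3 ± 1.52) and *Gstt3* (11.9 ± 1.10), and *Gsta1* (0.706 ± 0.518) and *Gstp2* (0.621 ± 0.204). The order within these last 3 pairs was not settled, and each pair swapped places when the length of the principal transcript replaced that of all exons. In KO noCys *Gstp1* (635 ± 42.7), *Gsta3* (265 ± 21.8) and *Gstt1* (115 ± 17.3) still came first, and *Gsta2* moved up to the fourth place at 63.9 ± 11.8, overlapping with *Gstk1* at 57.0 ± 4.92. With the principal transcript's length *Gsta2* came sixth there.

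**Figure D1:**
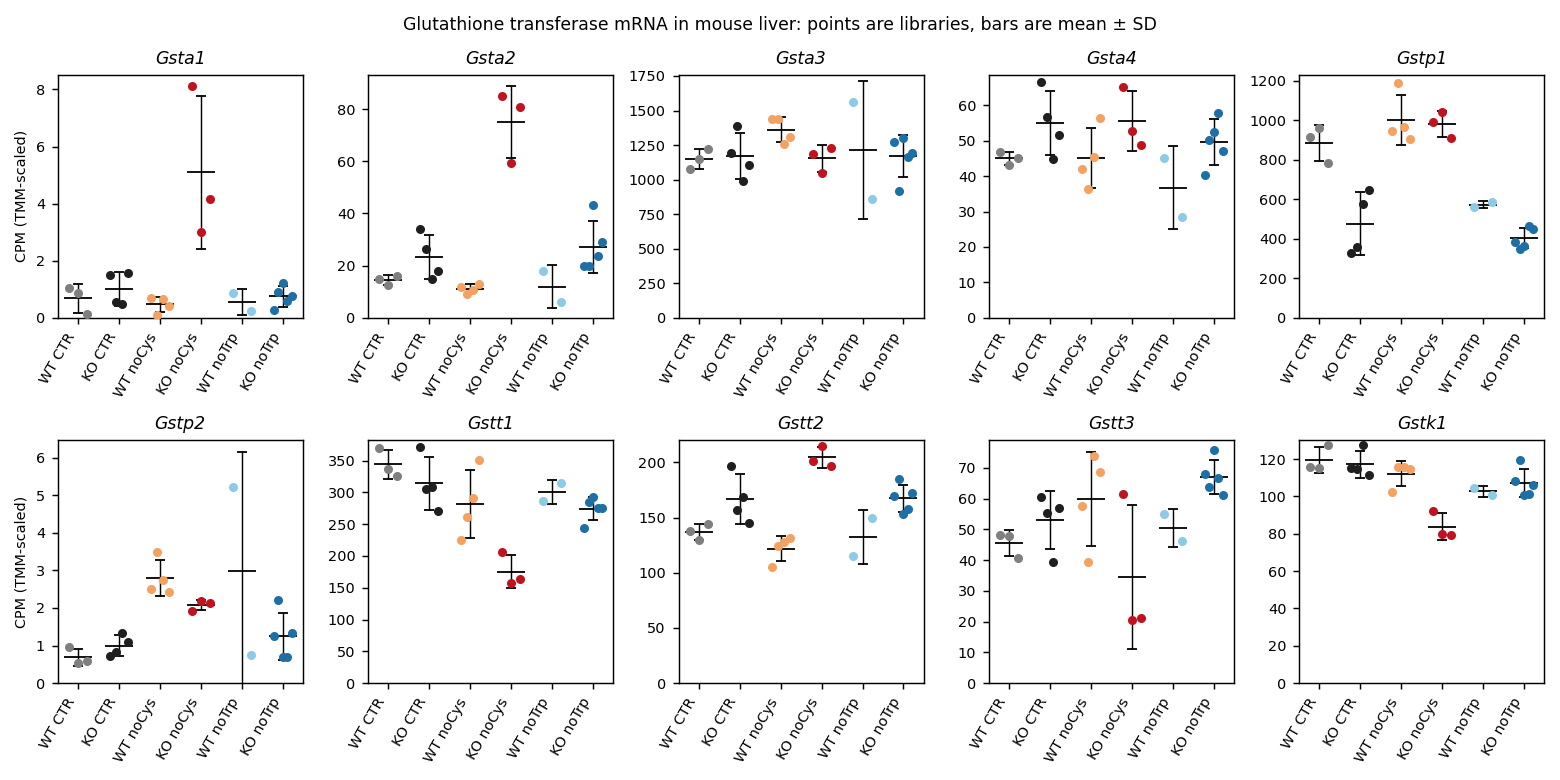
CPM of each of the 10 members (y axis, scaled by TMM, starting at 0) in the 21 libraries, by group on the x axis. Points are libraries and bars are the mean ± SD. *Gsta1* and *Gsta2* were highest in the 3 KO noCys libraries, where *Gstt1* and *Gstk1* were lowest.

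In KO noCys against WT noCys, 6 of the 10 members were called, 3 higher and 3 lower. *Gsta1* and *Gsta2* rose strongly, *Gstt2* rose less, and *Gstt1*, *Gstk1* and *Gstt3* fell. Of all genes tested, 28.2% were called, 14.8% higher and 13.4% lower. The groups did not overlap for 7 members, 3 higher and 4 lower, against 37.6% of all genes. The median log2 fold change was -0.13 over the 10 members and -0.02 over all genes. When library totals replaced TMM, the median of all genes moved up by 0.22 in this comparison, and the called members became 4 higher and 1 lower.

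*Gsta1* (ENSMUSG00000074183, chromosome 9, 78230656 to 78242684), an alpha enzyme with peroxidase activity, was close to the detection limit outside KO noCys. Its CPM was 8.12, 3.002 and 4.18 in KO noCys, from 72, 63 and 65 counts. In WT noCys it was 0.700, 0.113, 0.665 and 0.403, from 12, 1, 7 and 8 counts. All 3 KO noCys libraries lay above the whole of the other 18, whose highest value was 1.55. The log2 fold change was 3.32 (SE 0.57, adjusted p = 0.000263). Against KO CTR, at 1.498, 0.535, 0.472 and 1.55 CPM, it was 2.35 (SE 0.52, adjusted p = 0.00345).

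*Gsta2* (ENSMUSG00000057933, chromosome 9, 78331018 to 78355788) rose in the same libraries from a higher base. The KO noCys libraries held 85.1, 59.4 and 81.0 CPM and the WT noCys libraries 11.96, 9.01, 10.8 and 12.9998, and the fitted log2 difference was 2.73 (SE 0.32, adjusted p = 5.96e-06). On the control diet WT libraries held 14.9, 12.4 and 15.9 CPM and KO libraries 34.0, 26.2, 15.04 and 18.1. Without tryptophan WT libraries held 17.9 and 6.05 CPM and KO libraries 19.8, 19.7, 43.4, 23.7 and 29.3. The lowest KO noCys library was thus above the highest of all others. The change in KO from the control diet was 1.68 (SE 0.30, adjusted p = 0.00069). Both genes are named in the study's text as OSR genes, a choice made on liver data to which these libraries belong, and their direction is not independent evidence. Summing the reads of *Gsta1* and *Gsta2* into 1 value gave a log2 fold change of 2.77 in KO noCys against WT noCys, and the genotype call without cysteine was kept in all alternative fits and whichever library was left out.

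The other alpha genes were not called. *Gsta3* (ENSMUSG00000025934, chromosome 1, 21240589 to 21265661), whose enzyme conjugates aflatoxin epoxide in mice, was at 1186, 1046 and 1226 CPM in the KO noCys animals, and the WT noCys animals had 1439, 1436, 1261 and 1305. The KO noCys libraries were the lower ones without overlap, but the difference of -0.24 (95% interval -0.56 to 0.08, adjusted p = 0.283) was not called. *Gsta4* (ENSMUSG00000032348, chromosome 9, 78182774 to 78209349), which detoxifies 4-hydroxynonenal, a product of lipid peroxidation, ranged from 28.5 to 66.6 CPM over all 21 libraries. Its difference was 0.30 (95% interval -0.03 to 0.62, adjusted p = 0.194), with overlapping groups. With library totals *Gsta4* was called in this comparison (0.50, adjusted p = 0.0261). Neither gene was called in any of the 10 comparisons with the TMM scaling. An antisense gene, Gm28836, overlaps *Gsta3* without sharing exon bases.

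The theta genes, which lie in 1 cluster on chromosome 10, moved in opposite directions. *Gstt1* (ENSMUSG00000001663, 75783813 to 75798584), which acts on dichloromethane and related compounds, was at 206, 157 and 164 CPM in KO noCys, and WT noCys libraries had 226, 260.8, 291 and 351. All KO noCys libraries were the lower ones, and also lower than every other library of the study, where the lowest was 226. The log2 fold change was -0.69 (SE 0.14, adjusted p = 0.00101) against WT noCys and -0.84 (SE 0.14, adjusted p = 0.000281) against KO CTR.

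*Gstt2* (ENSMUSG00000033318, 75831114 to 75837424), a theta enzyme active on sulfate esters, went up. It was at 202, 215 and 197 CPM in KO noCys, and WT noCys libraries had 105, 124, 127 and 131, with no overlap, and the log2 fold change was 0.75 (SE 0.11, adjusted p = 7.73e-05). KO CTR (197, 156, 169 and 145) lay between, and its highest library reached the lowest of KO noCys. The change from KO CTR was 0.29 (SE 0.11, adjusted p = 0.0709) and was not called.

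*Gstt3* (ENSMUSG00000001665, 75774115 to 75781414) was at 61.5, 20.6 and 21.3 CPM in KO noCys, and WT noCys libraries had 57.6, 39.4, 73.8 and 68.5. KO noCys 1 lay among the WT noCys values, and the other 2 KO noCys libraries were below every other library of the study. The log2 fold change was -0.82 (SE 0.28, adjusted p = 0.0342), a call that was lost when any of WT noCys 1, 3 or 4 or KO noCys 3 or 4 was left out (adjusted p up to 0.207) and that became -1.52 (adjusted p = 3.63e-05) without KO noCys 1. *Gstk1* (ENSMUSG00000029864, chromosome 6, 42245935 to 42250447), the mitochondrial and peroxisomal enzyme, was at 92.0, 79.9 and 79.1 CPM in KO noCys, and WT noCys libraries had 102, 116, 116 and 115. All 3 KO noCys values were below those of the other 18 libraries, and the log2 fold change was -0.42 (SE 0.09, adjusted p = 0.00128). With library totals this call was lost (-0.21, adjusted p = 0.0545), as was that of *Gstt3* (-0.65, adjusted p = 0.0617), which was lost with only the groups compared too (-0.83, adjusted p = 0.0984).

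Markers of other cells moved with this comparison, in which 14.8% of all genes were called higher and 13.4% lower. The list of cholangiocyte and gut epithelium markers (9 genes, 5 tested) had 2 called lower and none higher, and summed to 17.3 to 20.4 CPM in KO noCys and 32.2 to 54.4 in WT noCys, with 1 marker at 0 in all KO noCys libraries, as 1 was in WT CTR and in WT noTrp. The hepatocyte list had 1 gene called higher and 4 lower of 10, with sums of 81213 to 100544 and 114362 to 121423 CPM. Of the tested markers 1 of 7 for Kupffer cells and leukocytes, 2 of 7 for endothelial cells, 2 of 8 for stellate cells and fibroblasts and 3 of 5 for erythroid cells were called lower, and none of these was called higher. Of 3 tested adipocyte markers 1 was called higher and 1 lower. Their part in the results was not tested, and in whole liver fewer cells of a type and less RNA per cell cannot be told apart.

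**Figure D2:**
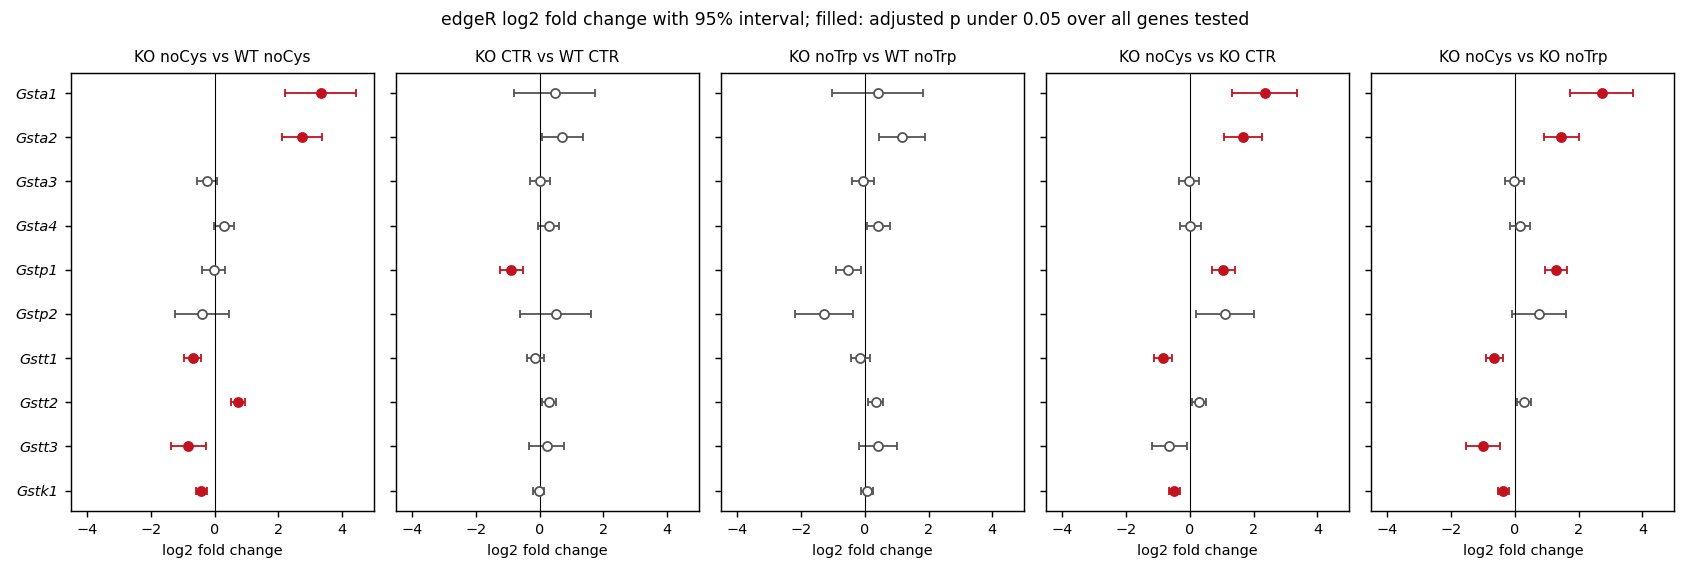
log2 fold change (x axis) of the 10 members (y axis) in 5 comparisons, with 95% intervals from edgeR; filled points had an adjusted p under 0.05 over all genes tested. *Gstp1* was not called between the genotypes without cysteine, and was called lower in KO on the control diet and higher in KO noCys than in KO CTR and KO noTrp.

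The pi gene *Gstp1* (ENSMUSG00000060803, chromosome 19, 4035407 to 4037985), with the highest mean level per kilobase of exon in all groups but KO noTrp (with the principal transcript's length *Gsta3* was first in KO CTR and WT noTrp too), fell into a high and a low set of groups. The WT CTR libraries had 914, 960.0 and 782 CPM, the WT noCys libraries 945, 1189, 967 and 903 and the KO noCys libraries 991, 1043 and 912. The KO CTR libraries had 327, 356, 575 and 649 CPM, the WT noTrp libraries 559 and 587, and the KO noTrp libraries 383, 349.9, 366, 464 and 450.3. No library of the first 3 groups overlapped with one of the last 3, but the 2 sets were formed from these same values. *Gstp1* was not called in WT noTrp against WT CTR (-0.63, adjusted p = 0.135). It was not called in KO noTrp against WT noTrp either (-0.51, adjusted p = 0.415). Within KO CTR, libraries 1 and 2 were well below libraries 3 and 4.

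In KO CTR against WT CTR *Gstp1* was the single member called, among 0.32% of all genes called in either direction and 0.251% called lower. Its log2 fold change was -0.89 (SE 0.18, adjusted p = 0.0398), with the 2 groups apart. The groups did not overlap for 2 members in this comparison, *Gstp1* and, in the upward direction, *Gstt2*, against 10.9% of all genes. The *Gstp1* call did not survive leaving out any one of WT CTR 1, 2 or 3 or KO CTR 1, 2 or 3, with log2 fold changes of -0.996 to -0.75 and adjusted p of 0.0524 to 0.143. It held without KO CTR 4 (-1.07, adjusted p = 0.0136). The call was also lost with library totals (adjusted p = 0.0552), with only the groups compared (0.249) and with the replicate block (0.107). Summed markers of 2 other tissues did not overlap between these groups, with 14.2 to 25.6 CPM in KO CTR against 6.78 to 13.5 in WT CTR for adipocytes and 11.3 to 13.8 against 16.3 to 22.6 for pancreas, and their part in the *Gstp1* value was not tested.

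In KO mice without cysteine *Gstp1* was higher than on the control diet and did not differ detectably from WT without cysteine. Against KO CTR it rose by 1.04 on the log2 scale (SE 0.18, adjusted p = 0.000551), and against WT noCys the difference was -0.03 (95% interval -0.39 to 0.34, adjusted p = 0.928). The same removal in WT gave 0.18 (95% interval -0.19 to 0.54, adjusted p = 0.724). The test of the difference between these diet effects gave 0.87 (SE 0.26, adjusted p = 0.047). That call was lost when any of 11 of the 14 libraries concerned was left out, with adjusted p up to 0.125, and was kept without KO CTR 3, KO CTR 4 or WT noCys 2. It was also lost with only the groups compared (adjusted p = 0.0664), with the replicate block (0.0593) and when *Gstp1*, *Gstp2* and Gstp-ps, which share annotated sequence, were summed (0.0682).

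Gstp-ps, a processed pi pseudogene on chromosome 1, had a profile close to that of *Gstp1*, and the 2 genes share annotated sequence. Over the 21 libraries it was the gene whose centred log2 CPM profile lay nearest to that of *Gstp1* among 9144 candidates, at a root mean square distance of 0.22, followed by *Prps2* (0.36) and *Gabbr2* (0.39). The KO CTR libraries had 86.1, 69.7, 152 and 175 CPM, with libraries 1 and 2 again below 3 and 4, and the KO noCys libraries 209, 225 and 211. Another pi gene, *Gstp3*, was called higher between the genotypes without cysteine (1.37, SE 0.18, adjusted p = 1.68e-05), whereas *Gstp1* was not called in that comparison. Male mice express more *Gstp1* in liver than females, so a list of 14 male-biased liver genes was counted too. None of the 14 was called in KO CTR against WT CTR (median -0.17), beside 0.32% of all genes. In KO noCys against KO CTR, where *Gstp1* rose, 8 of the 14 were called lower and none higher, beside 9.59% of all genes called lower. The part of sex-biased expression in the *Gstp1* values was not tested.

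*Gstp2* (ENSMUSG00000038155, chromosome 19, 4040285 to 4046023) was near the detection limit in all groups. WT libraries had 0.953, 0.541 and 0.581 CPM on CTR, 2.51, 3.49, 2.75 and 2.42 on noCys, and 5.23 and 0.747 on noTrp, the last 2 from 78 and 10 counts. KO libraries had 0.713, 0.821, 1.34 and 1.097 CPM on CTR, 1.92, 2.19 and 2.12 on noCys, and 1.25, 2.22, 0.706, 0.692 and 1.34 on noTrp. The 2 WT noTrp libraries were the farthest apart of any group. WT noTrp against WT CTR was called at 2.13 (SE 0.58, adjusted p = 0.0485), but the value was 0.13 (adjusted p = 0.953) without WT noTrp 1, 2.92 (adjusted p = 0.00153) without WT noTrp 2, and the call was also lost without any one WT CTR library. WT noCys against WT CTR, where the groups did not overlap, gave 2.0001 (SE 0.53, adjusted p = 0.081), and 1.91 (adjusted p = 0.237) without WT CTR 3.

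**Figure D3:**
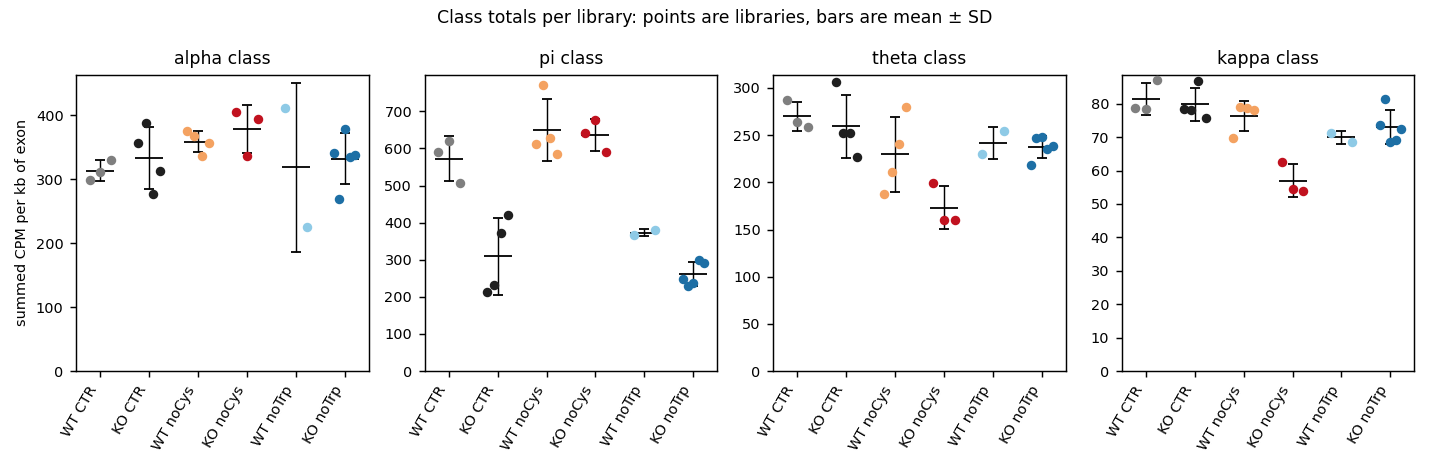
Summed CPM per kb of exon for the alpha, pi, theta and kappa members (y axis, starting at 0) in each of the 21 libraries, by group on the x axis. Points are libraries and bars are the mean ± SD. The pi total was 309 ± 103 in KO CTR and 636 ± 42.7 in KO noCys.

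Summed per class, the alpha genes had similar means in all groups, with *Gsta3* making up most of their total. The alpha sum was 313 ± 16.1 CPM per kb in WT CTR, 334 ± 48.3 in KO CTR, 359 ± 17.0 in WT noCys and 378 ± 37.1 in KO noCys. The theta sum was 230 ± 39.5 in WT noCys and 173 ± 22.7 in KO noCys, while the kappa gene was at 76.4 ± 4.48 and 57.0 ± 4.92. The pi share of the total of all 10 members was 46.2% ± 3.07 in WT CTR, 31.2% ± 9.26 in KO CTR and 51.2% ± 3.43 in KO noCys. The total of all 10 was 1238 ± 48.7 CPM per kb in WT CTR, 982 ± 40.3 in KO CTR, 1314 ± 79.3 in WT noCys and 1245 ± 57.6 in KO noCys, and 1003 ± 107 (n = 2) and 904 ± 50.3 in WT and KO noTrp. These sums are descriptions, and no test was made on them.

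The diets were then compared within KO. In KO noCys against KO CTR, 5 members were called, *Gsta1*, *Gsta2* and *Gstp1* higher and *Gstt1* and *Gstk1* lower, where 20.2% of all genes were called, 10.6% higher and 9.59% lower. The groups did not overlap for 6 members, against 28.6% of all genes. *Gstk1* fell by 0.49 on the log2 scale here (SE 0.09, adjusted p = 0.000637). The 2 KO groups that differ in which amino acid was missing were compared next. In KO noCys against KO noTrp, *Gsta1* (2.73, SE 0.50, adjusted p = 0.00144), *Gsta2* (1.46, SE 0.28, adjusted p = 0.00214) and *Gstp1* (1.29, SE 0.17, adjusted p = 9.43e-05) were higher. *Gstt1* (-0.65, SE 0.13, adjusted p = 0.00317), *Gstk1* (-0.36, SE 0.08, adjusted p = 0.00739) and *Gstt3* (-0.99, SE 0.27, adjusted p = 0.0201) were lower. Of all genes, 13.9% were called in this comparison, 7.17% higher and 6.75% lower, and the groups did not overlap for 6 members, against 19.6% of all genes. *Gstk1* lost its call without KO noCys 3 (adjusted p = 0.0655), and *Gstt3* lost it without KO noCys 3 or 4 (adjusted p = 0.162 and 0.121) and with only the groups compared (adjusted p = 0.0611), and was at -1.68 (adjusted p = 3.2e-05) without KO noCys 1. Marker sums of other cells differed between these groups without overlap: 84.1 to 113.1 CPM in KO noCys against 121 to 198 in KO noTrp for Kupffer cells and leukocytes, 119 to 123 against 142 to 198 for endothelial cells, and 17.3 to 20.4 against 27.3 to 51.7 for cholangiocytes and gut epithelium. Their part in the member values was not tested. These comparisons share the KO noCys libraries with the genotype comparison above.

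Few members were called in comparisons with the tryptophan-free diet alone. In KO noTrp against KO CTR edgeR called 0 of 10, with 0 at an unadjusted p under 0.05, and DESeq2 and limma-voom also called 0, beside 1.87% of all genes in edgeR. The log2 fold changes lay between -0.38 and 0.34, and the groups did not overlap for 1 member, *Gstt3*, against 6.33% of all genes. In KO noTrp against WT noTrp edgeR, DESeq2 and limma-voom called 0 as well, with 5 members at an unadjusted p under 0.05 in edgeR and 0.195% of all genes called. Here the groups did not overlap for 4 members, against 9.94% of all genes. *Gsta2* was higher in all 5 KO noTrp libraries than in both WT noTrp libraries, and *Gstp1* lower in all 5 (559 and 587 CPM against 349.9 to 464). Erythroid marker sums were apart too, at 112 to 214 CPM in KO noTrp and 222 to 378 in WT noTrp. Their part in the member values was not tested. In WT noTrp against WT CTR 1 member, *Gstp2*, was called (its values are given above), beside 3.19% of all genes in either direction and 1.7% higher. The groups did not overlap for 3 members, against 30.6% of all genes, and *Gstp1* was among them. Marker sums did not overlap either for Kupffer cells and leukocytes (165 to 187 CPM in WT noTrp against 66.3 to 123 in WT CTR), endothelial cells (162 to 214 against 102 to 152), stellate cells and fibroblasts (203 to 274 against 283 to 367) and adipocytes (24.9 to 26.6 against 6.78 to 13.5). Mitochondrial genes took 3.70% to 3.89% of counts in WT noTrp and 6.51% to 7.51% in WT CTR. The part of these differences in the member values was not tested.

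Cysteine removal was also compared in WT, which can still make the amino acid. In WT noCys against WT CTR 0 of 10 members passed in the edgeR fit over all groups, with 2 at an unadjusted p under 0.05, beside 0.661% of all genes called. DESeq2, limma-voom and the edgeR fits without the filter or with only these groups each called 1, *Gstp2*. The groups did not overlap for 2 members, *Gstp2* and *Gsta3*, both higher in WT noCys, against 16.4% of all genes. Hepatocyte marker sums were narrowly apart too, at 114362 to 121423 CPM in WT noCys and 92519.8 to 114311 in WT CTR. So were those of adipocytes (16.045 to 40.6 against 6.78 to 13.5) and pancreas (11.666 to 16.045 against 16.3 to 22.6). What part these marker differences had in the member values was not tested.

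Differences between effects were tested directly. The effect of cysteine removal differed between the genotypes for 2 members, both more positive in KO, beside 7.44% of all genes in either direction and 3.56% upward. They were *Gsta2* (2.02, SE 0.45, adjusted p = 0.00975), which kept this call whichever library was left out, and *Gstp1*, given above. *Gsta1* (2.85, SE 0.89, adjusted p = 0.0553), *Gstk1* (-0.39, SE 0.12, adjusted p = 0.0547), *Gstt2* (0.46, SE 0.16, adjusted p = 0.0846) and *Gstt1* (-0.55, SE 0.19, adjusted p = 0.0859) were not called, nor was *Gstt3* (-1.04, SE 0.39, adjusted p = 0.114). Several of these depended on the fit. *Gsta1* was called in 6 of 9 alternative fits (DESeq2, limma-voom, library totals, no filter and both sums of related genes; adjusted p of 0.00854 to 0.0798 over the 9) and without WT CTR 3 (3.28, adjusted p = 0.0326) or KO CTR 1 (3.13, adjusted p = 0.0487). *Gstk1* was called by DESeq2 and limma-voom (adjusted p of 0.00718 to 0.199 over 9 fits), *Gstt2* by limma-voom and with library totals (0.0217 to 0.188), and *Gstt1* (0.0411 to 0.227) and *Gstt3* (0.00802 to 0.152) by limma-voom alone. The genotype effect without cysteine minus that without tryptophan was called for 1 member, *Gstk1* (-0.49, SE 0.13, adjusted p = 0.0287), beside 6.35% of all genes in either direction and 3.03% downward. This call was lost without any one of WT noCys 2, 3 or 4, KO noCys 3 or 4, or WT noTrp 1 or 2 (adjusted p of 0.0524 to 0.0932). It was also lost in 5 of 9 alternative fits, those with limma-voom, library totals, no filter, only the groups compared and the replicate block (adjusted p up to 0.138). With library totals 3 members were called more positive (*Gsta1*, *Gsta2* and *Gstt2*) and none more negative. *Gsta2* was just outside at 1.55 (SE 0.46, adjusted p = 0.0504). Its value rests on the 2 WT noTrp libraries, being 0.56 (adjusted p = 0.596) without replicate 1 and 2.13 (adjusted p = 0.00764) without replicate 2.

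The rest of the glutathione pathway was described by lists, in KO noCys against WT noCys. For each list the shares over all genes were 14.8% called higher and 13.4% lower. Of 15 tested transferases of other classes, 6 were called higher and 1 lower. The higher ones were led by the mu enzyme *Gstm3* (2.84, SE 0.31, adjusted p = 2.87e-06), the omega enzyme *Gsto2* (2.52, SE 0.67, adjusted p = 0.0081) and *Gstm1* (1.93, SE 0.13, adjusted p = 8.73e-09), and the lower one was the membrane-bound *Mgst1* (-0.35, named after its value was seen). Of these, the study's text names *Gstm1* to *Gstm4* among its OSR genes. The median of the list was 0.22.

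Of 10 tested genes of glutathione supply, 4 were called higher and 1 lower, with a median of 0.37. *Chac1*, which cleaves glutathione, was higher by 2.32 (SE 0.45, adjusted p = 0.000762), *Ggct*, which releases 5-oxoproline from γ-glutamyl peptides, by 0.98 (SE 0.15, adjusted p = 8.05e-05), and *Chac2*, a second glutathione-cleaving enzyme, was lower (-0.60, SE 0.14, adjusted p = 0.00326). The subunits of the rate-limiting enzyme of glutathione synthesis were not called, with 0.40 for *Gclc* (SE 0.18, adjusted p = 0.102) and -0.11 for *Gclm* (SE 0.14, adjusted p = 0.567). The other 2 called higher, named after their values were seen, were the glutathione synthase *Gss* (0.34) and *Oplah*, the 5-oxoprolinase (0.46).

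Of 18 tested genes of conjugate export and mercapturic acid formation, 4 were called higher and 4 lower, with a median of 0.03. The pump *Abcc4* was higher by 2.83 (SE 0.27, adjusted p = 6.22e-07), and the related N-acetyltransferases *Nat8f5* and *Nat8f1* moved apart, at 1.95 (SE 0.33, adjusted p = 0.000241) and -1.57 (SE 0.18, adjusted p = 6.08e-06). Of 25 NRF2 targets that are neither transferases nor supply genes, 13 were called higher and 3 lower, with a median of 0.54. *Nqo1*, a quinone reductase, was at 1.87 (SE 0.19, adjusted p = 1.28e-06), *Cbr3*, a carbonyl reductase, at 1.86 (SE 0.53, adjusted p = 0.0126) and *Srxn1*, which repairs oxidised peroxiredoxins, at 1.35 (SE 0.15, adjusted p = 4.18e-06). *Ptgr1* was lower (-1.66, SE 0.39, adjusted p = 0.0036), and *Hmox1*, the haem oxygenase, was at 0.01 (SE 0.28, adjusted p = 0.99). *Nqo1* and *Srxn1* are also among the genes picked by the study. In KO CTR against WT CTR and in KO noTrp against WT noTrp none of the genes in these 4 lists was called, where only 0.32% and 0.195% of all genes were called, so these counts do not set the lists apart.

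**Figure D4:**
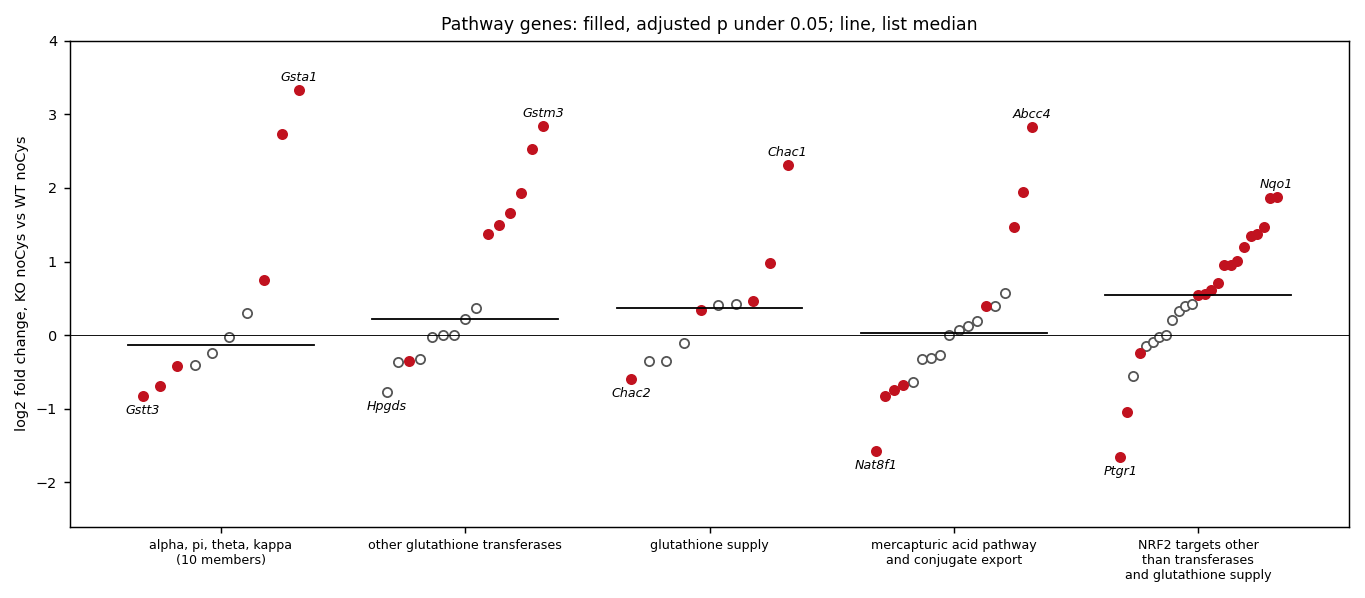
log2 fold change of KO noCys against WT noCys (y axis) for the 10 members and the tested genes of 4 pathway lists (x axis), ordered by value within each list. Filled points had an adjusted p under 0.05 over all genes tested, horizontal lines are list medians, and the highest and lowest gene of each list is named; the members ran from -0.82 (*Gstt3*) to 3.32 (*Gsta1*).

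Genes with profiles most like those of the variable members were sought by the same distance as for *Gstp1*. For *Gsta2* they were *Cyp2a5* (0.43), *Htatip2* (0.55) and *Cmss1* (0.55), and for *Gsta1* they were Gstm2-ps1 (0.76), *Nqo1* (0.81) and *Cyp2a5* (0.83). For *Gstp2* they were *Slc25a25* (0.48), *Tat* (0.49) and *Sik1* (0.50), and for *Gstt3* *Akr1d1* (0.23), *Actr6* (0.28) and *Apon* (0.32). The other 5 members varied too little (SD under 0.5) to be included.

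Neighbours were examined because the members lie in clusters. Of 55 tested genes within 250 kb of a member, 11 were called higher and 10 lower in KO noCys against WT noCys, with a median of 0.02. The shares over all genes were 14.8% higher and 13.4% lower. In the theta cluster *Ddt*, 0.70 kb from *Gstt3*, was lower (-0.68, SE 0.16, adjusted p = 0.00385), and *Mif*, 21.9 kb from *Gstt2*, was higher (0.44, SE 0.13, adjusted p = 0.0152). *Derl3*, 56.0 kb from *Gstt2*, was higher by 2.90 (SE 0.67, adjusted p = 0.00309). Beside *Gsta3*, the nearest called neighbour was *Tmem14a*, 10.4 kb away and lower (log2 fold change -1.31, SE 0.25, adjusted p = 0.000733). Next to *Gsta4*, *Ick* was 10.7 kb away and higher (0.75, SE 0.19, adjusted p = 0.0058).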

How the data were processed

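Liver poly(A) RNA was sequenced as paired reads of 61 bases in 21 libraries of 6 genotype-by-diet groups, taken from the labels. The authors aligned the reads to GRCm38 with HISAT2 2.1.0 and counted them per gene with HTSeq 0.11.0, and deposited raw gene counts. The annotation release and strand setting were not given in the sources used here. The table's header has 1 further library name with no counterpart among the samples, which was left out. Gene symbols came from GENCODE M21, which held 45229 of the 46078 genes (the other 849 took 0.0536% of counts).

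Counts were fitted with edgeR 4.0.16 in R 4.3.3 (TMM factors 0.883 to 1.14; filterByExpr, minimum count 10 and minimum total 15) in 1 one-way model over the 6 groups, with two-sided quasi-likelihood F-tests, Benjamini-Hochberg adjustment over 14370 genes and calls at 0.05. The scripts were tested on simulated data. DESeq2 1.42.0, limma 3.58.1 (voom with quality weights), other scalings, no filter, fits of only the groups compared, a replicate block, summed paralogs and leaving out each library were alternatives; summing all genes that share annotated sequence was added after seeing the data.

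All 10 members are described. From each gene list at most the 3 called genes with the largest absolute log2 fold change in KO noCys against WT noCys are named, plus *Nqo1*, *Gclc*, *Gclm*, *Hmox1* and *Srxn1*, and, outside this rule and after their values were seen, *Mgst1*, *Gss* and *Oplah*; called neighbours within 250 kb and, for members with an SD of log2 CPM over 0.5, the 3 nearest profiles could be named too. The members and lists were chosen with earlier results of these data known. Cell type markers were summed as CPM relative to library totals, without TMM scaling.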

Additional observations from a re-analysis of the deposited data

Results flagged for a closer look

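*Gstk1* in the library WT noCys 1 was at 102 CPM, with the other 3 libraries of the group at 115 to 116, a gap of 0.903 of the group's range. This was 1 of 30 sets of values tested for a distant library, and chance gives about 1 in 20.

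For 3 results the effects in 2 settings differed by a direct test in edgeR. The effect of cysteine removal was more positive in KO than in WT for *Gsta2* by 2.02 on the log2 scale (adjusted p = 0.00975) and for *Gstp1* by 0.87 (adjusted p = 0.047). The genotype effect on *Gstk1* without cysteine minus that without tryptophan was -0.49 (adjusted p = 0.0287), and the *Gstk1* library named above belongs to 1 of the groups in it. The *Gstp1* call was lost in 3 of 9 alternative fits and without any of 11 of 14 libraries, and the *Gstk1* call in 5 of 9 fits and without any of 7 of 14 libraries. The *Gsta2* call was kept in all of its 7 alternative fits and without any 1 library.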

How the results depend on the processing

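In KO noCys against WT noCys 5 or 6 members were called in all alternatives, and *Gsta1*, *Gsta2*, *Gstt1* and *Gstt2* kept their calls in all of them. The causes of the other changes were not tested. With library totals the called members numbered 0 in KO CTR against WT CTR, 4 for genotype by cysteine removal and 3 for the genotype effect without cysteine minus without tryptophan. DESeq2 called 4 and 4 in these last 2 tests and 1 in WT noCys against WT CTR. limma-voom called 7 for genotype by cysteine removal, 8 in KO noCys against KO CTR and 1 in WT noCys against WT CTR. In WT noTrp against WT CTR it called 0. In KO noCys against KO noTrp limma-voom also called *Gstp2* (adjusted p = 0.043) and *Gstt2*, and the fit with library totals also called *Gstt2*. Without the filter 1 was called in WT noCys against WT CTR, 3 for genotype by cysteine removal (*Gsta1*, *Gsta2* and *Gstp1*) and 2 for the difference of genotype effects (*Gsta2* and *Gstt3*, not *Gstk1*). With only the groups compared the counts were 0 in KO CTR against WT CTR, 1 in WT noCys against WT CTR, 0 in WT noTrp against WT CTR, 1 for genotype by cysteine removal and 0 for the difference of genotype effects. With either kind of summed genes 0 were called in WT noTrp against WT CTR and 2 for the difference of genotype effects, and summing all genes with shared sequence gave 1 for genotype by cysteine removal.

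Whether the replicate numbers pair the samples was not settled. Deviations of libraries with the same number correlated from -0.36 to 0.35 (median -0.03), with 9 of 41 over 0.1. Those with different numbers correlated from -0.38 to 0.24 (median 0.01), with 26 of 140 over 0.1. Best matches had the same number for 7 of 21 libraries. With the replicate block 0 members were called in KO CTR against WT CTR and in WT noTrp against WT CTR, 1 for genotype by cysteine removal and 0 for the difference of genotype effects.

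Leaving out 1 library at a time gave 0 to 1 called members in KO CTR against WT CTR, in KO noTrp against WT noTrp and in WT noTrp against WT CTR, 1 to 4 for genotype by cysteine removal and 0 to 3 for the difference of genotype effects. *Gstp2* in KO noTrp against WT noTrp (-1.29) reversed to 0.71 (adjusted p = 0.734) without WT noTrp 1 and was -2.08 (adjusted p = 0.00724) without WT noTrp 2.

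Over all genes, the calls of edgeR, DESeq2 and limma-voom were 46, 125 and 86 in KO CTR against WT CTR, 28, 117 and 6 in KO noTrp against WT noTrp, 269, 580 and 610 in KO noTrp against KO CTR, 95, 307 and 533 in WT noCys against WT CTR, 459, 747 and 32 in WT noTrp against WT CTR, 2000, 2333 and 3204 in KO noCys against KO noTrp, 1069, 1366 and 2179 for genotype by cysteine removal and 912, 1274 and 553 for the difference of genotype effects. The block gave 10, 14 and 191 in KO CTR, WT noCys and WT noTrp against WT CTR and 1302 in KO noCys against KO noTrp. Fits of only the groups compared gave 6, 396 and 3 against WT CTR in the same order, 4 in KO noTrp against WT noTrp and 136 in KO noTrp against KO CTR. Without the filter 154 genes were called in KO CTR against WT CTR, 101 in KO noTrp against WT noTrp and 269 in WT noCys against WT CTR. Counts were low for *Gsta1* and *Gstp2*, at 1 to 78 per library, and the cause was not tested.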

Other observations

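Other gene groups that act on foreign compounds or mark liver zones and sex were counted in KO noCys against WT noCys with the same edgeR fit. For each group the shares over all genes were 14.8% called higher and 13.4% lower. Of 19 tested targets of the xenobiotic receptors CAR and PXR, 5 were called higher and 5 lower, with a median log2 fold change of -0.20. The cytochromes P450 *Cyp2b9* (5.49, SE 1.44, adjusted p = 0.00758) and *Cyp2b10* (-3.45, SE 0.86, adjusted p = 0.00535) moved apart, and the oestrogen sulfotransferase *Sult1e1* was at 3.25 (SE 0.79, adjusted p = 0.00442). Of 6 tested AhR targets, *Nqo1* and *Cyp1a2* (0.97) were called higher and none lower, with a median of -0.20.

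Of 14 male-biased liver genes, 7 were called lower and none higher, with a median of -0.93. The largest changes were in *Serpina12* (-5.23), *Selenbp2* (-5.10) and *Hsd3b5* (-1.81). Of 6 tested female-biased genes 2 were called higher, *Cyp2b9* and *Cyp2a4* (1.77), and 1 lower, *Prom1* (-1.95), with a median of 1.37. Among 12 pericentral genes 1 was called higher and 4 lower, with a median of -0.16 (*Cyp2c29* -1.65, *Cyp1a2* 0.97, *Slc13a3* -0.66). Among 12 periportal genes 1 was called higher and 4 lower, with a median of -0.32 (*Pigr* -1.54, *Alb* -1.15, *Cyp2f2* -1.10).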
